A study of Mus musculus with 16 samples.

Results

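The mitochondrial carriers of the Slc25 family were followed across wild-type (WT) and Fam134bKO C2C12 myoblasts and myotubes. The family was chosen with earlier results of these data known. Its members were taken by name, as the rows whose gene symbol is Slc25a followed by a number. This gave 47 of the 31053 genes in the table. Of these, 35 reached a normalized count of 10 or more in 4 or more of the 16 samples and were tested among the 10767 genes that passed this filter. The other 12 were too low to test and are described further on.

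C2C12 is a mouse myoblast line that fuses into multinucleated myotubes. Here it differentiated by itself at confluence, in the same growth medium (DMEM with 10% FBS) in which the myoblasts were kept. Fam134b encodes a receptor for the autophagy of the endoplasmic reticulum, and the study asked how its loss alters the transcriptome before and after differentiation. mRNA was sequenced from 4 groups of 4 samples each, WT myoblasts, WT myotubes, Fam134bKO myoblasts and Fam134bKO myotubes. The Fam134bKO line was made with a lentiviral CRISPR-Cas9 vector that carried a pair of guide RNAs, and cells were selected with antibiotics after transduction. The study lists guides for more than 1 pair, and which of them this line carried is not given there. Whether that line is 1 clone, and whether the WT cells carried a control vector, is not given in the sources used here. All 4 groups are therefore 1 cell line with 1 edited derivative, and a difference between the genotypes cannot be told apart from a difference between these cultures. Replicates are labelled biological, with nothing on how they were raised, so p-values measure the spread between these samples.

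Slc25 proteins are nuclear-encoded carriers, nearly all of the inner mitochondrial membrane, which exchange or import the metabolites that the matrix and the cytosol share. They move ADP and ATP, phosphate, carboxylic acids, amino acids, coenzymes, acylcarnitines and metals, and so link glycolysis, oxidative phosphorylation, the urea cycle and iron use. In muscle the ADP/ATP carrier encoded by Slc25a4 (Ant1) and the aspartate/glutamate carrier encoded by Slc25a12 (Aralar) are known as the prevailing forms of their pairs, while Slc25a5 (Ant2) is known from growing cells. Carriers are inserted into the inner membrane by the TIM22 pathway after import through the receptor Tom70.

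The 250 bases upstream of the starts that RefSeq (GRCm38.p6) gives for 3 members are printed here, 5′ to 3′ on the strand of the gene. Slc25a5 is the growth form of the ADP/ATP carrier, and Slc25a29 and Slc25a10 are the members that were called on differentiation in both genotypes. Against GENCODE M21, none of the bases of the Slc25a5 and Slc25a10 windows and 7 of the Slc25a29 window lie in an exon of the gene. Of the Slc25a4 window 222 bases do, so it is not printed. Capitals mark any match, on either strand, to the E-box CANNTG bound by myogenic helix-loop-helix factors or to the GC box GGGCGG.
Slc25a5, chrX:36795347-36795596, plus strand: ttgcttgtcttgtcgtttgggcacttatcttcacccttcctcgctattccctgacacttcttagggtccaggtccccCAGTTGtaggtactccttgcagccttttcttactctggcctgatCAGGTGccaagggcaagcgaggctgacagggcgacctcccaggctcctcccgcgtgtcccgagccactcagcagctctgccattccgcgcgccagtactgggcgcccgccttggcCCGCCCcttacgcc
Slc25a29, chr12:108835877-108836126, minus strand: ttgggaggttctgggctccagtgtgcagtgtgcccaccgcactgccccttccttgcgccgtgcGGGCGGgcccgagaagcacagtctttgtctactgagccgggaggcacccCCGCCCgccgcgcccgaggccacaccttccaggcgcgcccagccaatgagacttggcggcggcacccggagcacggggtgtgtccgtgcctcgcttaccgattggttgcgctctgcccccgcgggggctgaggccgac
Slc25a10, chr11:120491587-120491836, plus strand: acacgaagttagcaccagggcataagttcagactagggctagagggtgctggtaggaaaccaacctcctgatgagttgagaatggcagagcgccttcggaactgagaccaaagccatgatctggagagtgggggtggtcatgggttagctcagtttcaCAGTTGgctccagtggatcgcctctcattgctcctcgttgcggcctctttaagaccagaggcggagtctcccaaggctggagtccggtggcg
The Slc25a5 window held 2 E-boxes and 1 GC box, the Slc25a29 window 2 GC boxes and no E-box, and the Slc25a10 window 1 E-box. The muscle-type E-box CAGCTG, which is contained in CANNTG, was in none of the 3 windows, and neither was the core of the NRF1 site. Over the 32851 windows of this kind in RefSeq, 66.2% held a CANNTG, 13% a CAGCTG, 32.7% a GGGCGG and 3.74% an NRF1 core. Among the 36 windows that could be matched to 27 tested members, 24 held a CANNTG, 3 a CAGCTG, 29 a GGGCGG and 1 an NRF1 core. These are matches of letters only.

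Between 1484750 and 3287461 reads per sample were counted on genes. The Fam134bKO myotubes were the least deep group (1484750 to 2947336 reads) and the most scattered, with a root mean square deviation from the group means of 0.448 to 0.691 on the log2 scale against 0.260 to 0.440 in the other groups. Replicates 2 and 4 of the Fam134bKO myotubes had 1790524 and 1484750 reads and are called the shallow libraries below. Of the 20 calls of Slc25 members that used the Fam134bKO myotubes, 8 were lost without both of them, and each of the 20 is given with and without them. A count of 3 reads corresponded to a normalized count of 2.49 to 5.99, depending on the sample, which is the floor of these libraries for counting error. Fam134b itself was lower in Fam134bKO than in WT cells, with a log2 fold change of -2.86 in myoblasts (limma, adjusted p = 2.95e-08) and -2.46 in myotubes (limma, adjusted p = 9.85e-07). The 10 myotube markers tested, among them Myog, Myh3 and Ckm, were all called higher in myotubes of both genotypes. Summed over the list, the normalized count ranged from 1734 to 2543 among WT myoblasts and from 26680 to 40399 among WT myotubes. It ranged from 16.7 to 23.2 among Fam134bKO myoblasts and 11642 to 15849 among Fam134bKO myotubes, so that these sums were below those of WT samples at both stages. Of the single markers, 8 were called lower in Fam134bKO than in WT myoblasts and 5 in myotubes. For Myog (487 to 940 against 915 to 1347), Myh1 and Actc1 the myotube groups overlapped. By real-time PCR the paper reported higher Myog and Myh1 mRNA in Fam134bKO than in control cells. The summed count of 6 cycling markers was 4248 to 5123, 2294 to 3600, 3017 to 5100 and 896 to 1552 in the same order, and that of 6 fibroblast markers 2679 to 5512, 12366 to 22001, 3719 to 13974 and 17045 to 35814. Of the cycling markers 4 were called lower in WT and 6 in Fam134bKO differentiation, and 1 and 5 were called lower in Fam134bKO than in WT myoblasts and myotubes. Of the 4 fibroblast markers tested 3 were called higher in the differentiation of either genotype, and 2 were called higher in Fam134bKO than in WT cells at each stage. Of 3 myoblast markers 2 were tested. Myod1 was called lower in Fam134bKO than in WT cells at both stages (log2 fold changes -4.81 and -1.43) and higher in the differentiation of both genotypes (1.45 in WT and 4.83 in Fam134bKO cells). Myf5 was called lower in Fam134bKO differentiation (-0.92, limma adjusted p = 0.0119). Its normalized counts of 107 to 118 in Fam134bKO myoblasts lay above the 59.8 to 81.99 in WT myoblasts, a difference that was not called (adjusted p = 0.0955). Of 6 adipocyte markers, Adipoq, Plin1 and Lep were at 0 in every sample and Pparg alone was tested. Pparg was called higher in Fam134bKO than in WT myoblasts (1.84, limma adjusted p = 0.0366), with normalized counts of 12.5 to 26.2 against 3.56 to 6.004. It was called lower in Fam134bKO differentiation (-2.27, adjusted p = 0.00543). Its highest count was 3.45 in WT myotubes and 8.1 in Fam134bKO myotubes. Only the Fam134bKO myoblasts reached the filter at 10, so both calls rest on the group that let Pparg be tested. The values they were compared with lay near the floor or below it. The shares of all genes called in each comparison are given with the member counts below. Fewer cells of a type and less RNA per cell cannot be told apart in such bulk samples, and the part of these markers in the results on the carriers was not tested.

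Called below means an adjusted p under 0.05 (limma across all genes tested, Benjamini-Hochberg), and changes are differences of mean log2(normalized count + 1) with their standard error (SE), n = 4 per group. On differentiation of WT cells 4 of the 35 members were called, against 23.0% of all genes tested. Slc25a29 rose (13.8% of all genes were called higher) and Slc25a10, Slc25a24 and Slc25a44 fell (9.16% of all genes were called lower). On differentiation of Fam134bKO cells 13 members were called, against 33.4% of all genes. Slc25a12, Slc25a29, Slc25a36, Slc25a37 and Slc25a45 rose (17.3% of all genes) and Slc25a1, Slc25a4, Slc25a5, Slc25a10, Slc25a14, Slc25a15, Slc25a28 and Slc25a40 fell (16.1% of all genes). Slc25a10 and Slc25a29 were the 2 members called in both genotypes. The median change of the members was -0.12 in WT and -0.02 in Fam134bKO cells, beside -0.01 and -0.02 over all genes tested. The groups of 4 did not overlap for 6 members in WT and 9 in Fam134bKO differentiation, against 28.0% and 27.4% of all genes. At an unadjusted p under 0.05 there were 8 and 15 members, against 35.4% and 43.7% of all genes. Called members thus went in both directions on differentiation, and their share was below that of all genes in WT cells and close to it in Fam134bKO cells.

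**Figure D1:**
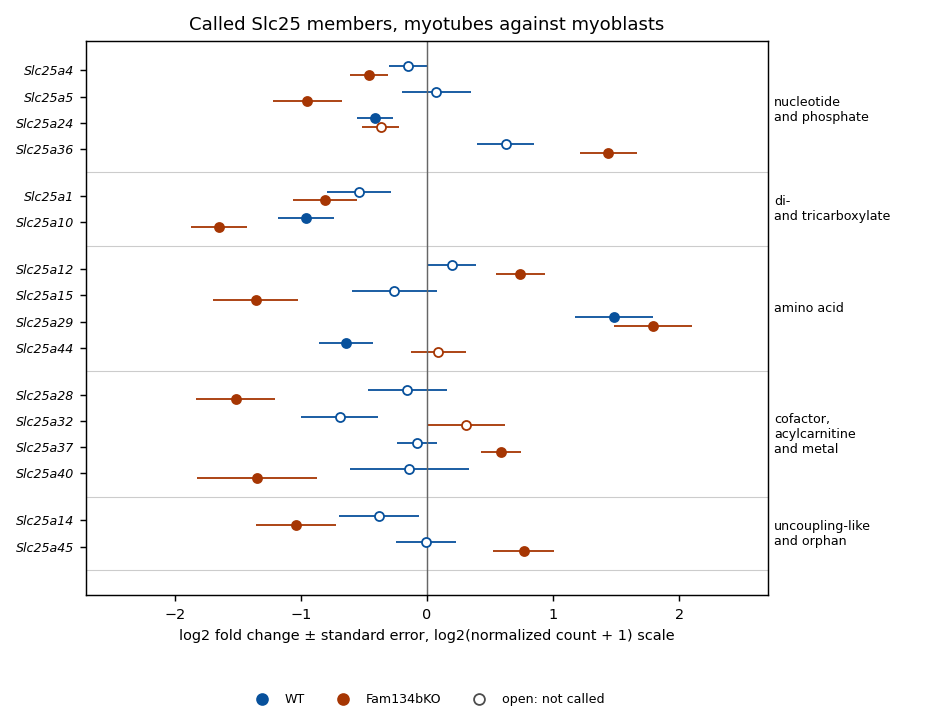
Log2 fold change of myotubes against myoblasts (horizontal axis, log2(normalized count + 1) scale) for the 16 Slc25 members called in at least 1 comparison, grouped by role, in WT (blue) and Fam134bKO cells (brown). Points are differences of group means with the standard error as bars, n = 4 per group, and filled points passed an adjusted p of 0.05: 4 in WT and 13 in Fam134bKO cells.

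Between genotypes, 3 members were called in myoblasts, against 15.8% of all genes. Slc25a4 and Slc25a12 were higher in Fam134bKO myoblasts (7.26% of all genes were called higher) and Slc25a37 was lower (8.5% of all genes were called lower). In myotubes 7 members were called, against 23.4% of all genes. Slc25a12, Slc25a32 and Slc25a36 were higher in Fam134bKO myotubes (9.74% of all genes) and Slc25a5, Slc25a10, Slc25a28 and Slc25a40 were lower (13.7% of all genes). Slc25a12 was the 1 member called at both stages. The median change of the members was -0.03 in myoblasts and 0.08 in myotubes, beside -0.01 and -0.07 over all genes. The groups did not overlap for 7 members in myoblasts and 6 in myotubes, against 26.8% and 19.4% of all genes. At an unadjusted p under 0.05 there were 5 and 11 members, against 27.4% and 35.7% of all genes. The 4 comparisons share samples in pairs, so each member's values are given side by side and not as independent evidence. The member counts depended on single libraries. In WT differentiation 2 members (Slc25a10 and Slc25a29) were called without WT myoblasts replicate 2, without WT myoblasts replicate 4 or without WT myotubes replicate 1, where 19, 15.6 and 14.5% of all genes were called. Between the genotypes in myotubes the count was 4 without WT myotubes replicate 3, 3 without WT myotubes replicate 4 and 4 without Fam134bKO myotubes replicate 4, against 16.9, 17.7 and 22% of all genes. With both shallow Fam134bKO myotube libraries left out, the counts were 7 in WT differentiation, 10 in Fam134bKO differentiation, 6 between genotypes in myoblasts and 4 in myotubes, against 30.5, 31.7, 20.7 and 20.5% of all genes. Each SE takes 1 spread per gene from all 4 groups, although the Fam134bKO myotubes scattered most. In fits of only the 8 samples compared, 9 of the 27 calls were lost. These were Slc25a24 in WT differentiation and Slc25a4, Slc25a40 and Slc25a45 in Fam134bKO differentiation. Between the genotypes in myotubes they were Slc25a5, Slc25a28, Slc25a32, Slc25a36 and Slc25a40.

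**Figure D2:**
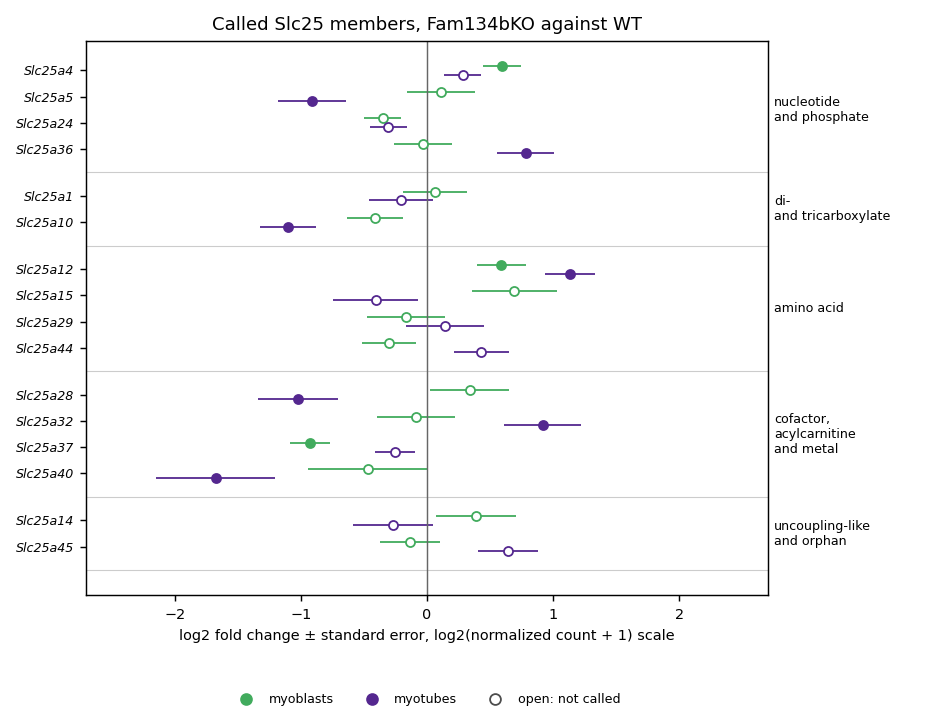
Log2 fold change of Fam134bKO against WT cells (horizontal axis, log2(normalized count + 1) scale) for the 16 Slc25 members called in at least 1 comparison, grouped by role, in myoblasts (green) and myotubes (purple). Points are differences of group means with the standard error as bars, n = 4 per group, and filled points passed an adjusted p of 0.05: 3 in myoblasts and 7 in myotubes.

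Among the carriers of nucleotides and phosphate, 8 of 10 were tested. Slc25a4 (chr8:46206797-46211284, minus strand, GENCODE M21 on GRCm38) encodes Ant1, which exchanges cytosolic ADP for matrix ATP. Its normalized counts were 1356, 1397, 1468 and 1419 in the 4 WT myoblast samples and 1286, 1289, 1225 and 1284 in the 4 WT myotube samples. In Fam134bKO cells they were 2426, 1678, 2379 and 2116 in myoblasts and 1402, 1693, 1728 and 1391 in myotubes. The 4 Fam134bKO myoblast samples were the highest group and lay above all WT myoblasts, and the Fam134bKO myotubes overlapped them from below. Slc25a4 was 0.59 ± 0.15 higher in Fam134bKO than in WT myoblasts on the log2 scale (limma, adjusted p = 0.00729), and it fell on differentiation of Fam134bKO cells (-0.46 ± 0.15, adjusted p = 0.0209). In WT cells the 4 myotube samples were all below the 4 myoblast samples, but the change of -0.15 ± 0.15 was not called (adjusted p = 0.503), nor was the difference of 0.28 ± 0.15 between the genotypes in myotubes (adjusted p = 0.180), where the groups did not overlap either. The call in Fam134bKO differentiation was lost without Fam134bKO myoblasts replicates 1 or 3, or without Fam134bKO myotubes replicate 1, with log2 fold changes of -0.58 to -0.40 and adjusted p up to 0.0779 over the fits that left out 1 sample. Without both shallow libraries, the limma log2 fold change was -0.45 in Fam134bKO differentiation (adjusted p = 0.0637), which was not called.

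Slc25a5 (chrX:36795651-36798807, plus strand) encodes Ant2, the ADP/ATP carrier of growing cells. The 4 WT myoblast samples gave normalized counts of 1153, 788, 1115 and 1202, and the 4 WT myotube samples gave 1539, 899.6, 888 and 1219. The Fam134bKO samples gave 1314, 1149, 1060 and 1038 in myoblasts and 780.3, 502, 1009 and 302 in myotubes. The Fam134bKO myotubes were all below the Fam134bKO myoblasts, and 1 of them (replicate 3) lay within the range of the WT myotubes. Slc25a5 fell on differentiation of Fam134bKO cells (-0.95 ± 0.27, limma adjusted p = 0.0103) and was lower in Fam134bKO than in WT myotubes (-0.91 ± 0.27, adjusted p = 0.0186). In WT cells its change was 0.07 ± 0.27 (adjusted p = 0.879). The call in the myotube comparison was lost without WT myotubes replicates 1 or 4, or without Fam134bKO myotubes replicate 4, with log2 fold changes of -1.17 to -0.59 and adjusted p up to 0.0690 over the fits that left out 1 sample. Without replicate 4 of the Fam134bKO myotubes its change in Fam134bKO differentiation was -0.63. With both shallow libraries left out, the limma log2 fold changes were -0.36 in Fam134bKO differentiation (adjusted p = 0.251) and -0.32 in the myotube comparison (adjusted p = 0.351), neither of them called. In 8 two-sided exact permutation tests of Slc25a4 and Slc25a5 over the 4 comparisons, the smallest p that 4 against 4 samples allows (0.0286) was reached by Slc25a4 in 3 comparisons and by Slc25a5 in Fam134bKO differentiation. Adjusted over the 8 tests this exact p was 0.0571. In the last 500 bases of the Slc25a5 transcript, 39.5% of the 31-base words also occur in 11 other annotated genes, so its count is uncertain where reads could be split among copies.

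Slc25a36 (chr9:97074961-97111157, minus strand) encodes a carrier of pyrimidine nucleotides. In WT cells, the normalized counts were 81.2, 94.5, 66.05 and 86.4 in myoblasts and 179, 95.4, 104 and 142 in myotubes. For Fam134bKO cells the values were 70.9, 87.2, 98.9 and 65.9 in myoblasts and 287, 236, 148 and 222 in myotubes. In both genotypes every myotube sample was above every myoblast sample, and 3 of the 4 Fam134bKO myotubes lay above all WT myotubes. Slc25a36 rose on differentiation of Fam134bKO cells (1.44 ± 0.23, limma adjusted p = 5.39e-05), while the WT change of 0.62 ± 0.23 missed the threshold (adjusted p = 0.0523). It was higher in Fam134bKO than in WT myotubes (0.78 ± 0.23, adjusted p = 0.0163). The call in the myotube comparison was lost without WT myotubes replicates 2 or 3, or without Fam134bKO myotubes replicate 1, with log2 fold changes of 0.65 to 0.97 and adjusted p up to 0.0596 over the fits that left out 1 sample. The limma log2 fold changes were 1.36 in Fam134bKO differentiation (adjusted p = 0.000942) and 0.71 in the myotube comparison (adjusted p = 0.0784) in the fit without both shallow libraries, of which the first was called. In its last 500 bases, 18.3% of the 31-base words occur elsewhere in annotated transcripts.

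Slc25a24, 1 of the calcium-regulated ATP-Mg/phosphate carriers, gave the smallest of the called changes. Its normalized counts were 294, 309, 243 and 267 in the 4 WT myoblast samples and 219, 202, 181 and 233 in the 4 WT myotube samples. In Fam134bKO cells they were 221, 206, 227 and 214 in myoblasts and 156, 182, 185 and 152 in myotubes. All WT myotubes were below all WT myoblasts, and the Fam134bKO myotubes had the lowest mean. Slc25a24 fell on differentiation of WT cells (-0.41 ± 0.15, limma adjusted p = 0.0450). Its change in Fam134bKO cells was -0.37 ± 0.15 (adjusted p = 0.0571). The call in WT differentiation was lost without WT myoblasts replicates 1, 2 or 4, or without WT myotubes replicates 1, 2, 3 or 4, or without Fam134bKO myoblasts replicates 1, 3 or 4, with log2 fold changes of -0.48 to -0.35 and adjusted p up to 0.130 over the fits that left out 1 sample. The other carriers of the group, the phosphate carrier Slc25a3, the ATP-Mg/phosphate carriers Slc25a23 and Slc25a25 and the pyrimidine nucleotide carrier Slc25a33, were called in no comparison. Slc25a3 changed by -0.32 ± 0.21 in WT and 0.06 ± 0.21 in Fam134bKO differentiation, neither past the test.

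**Figure D3:**
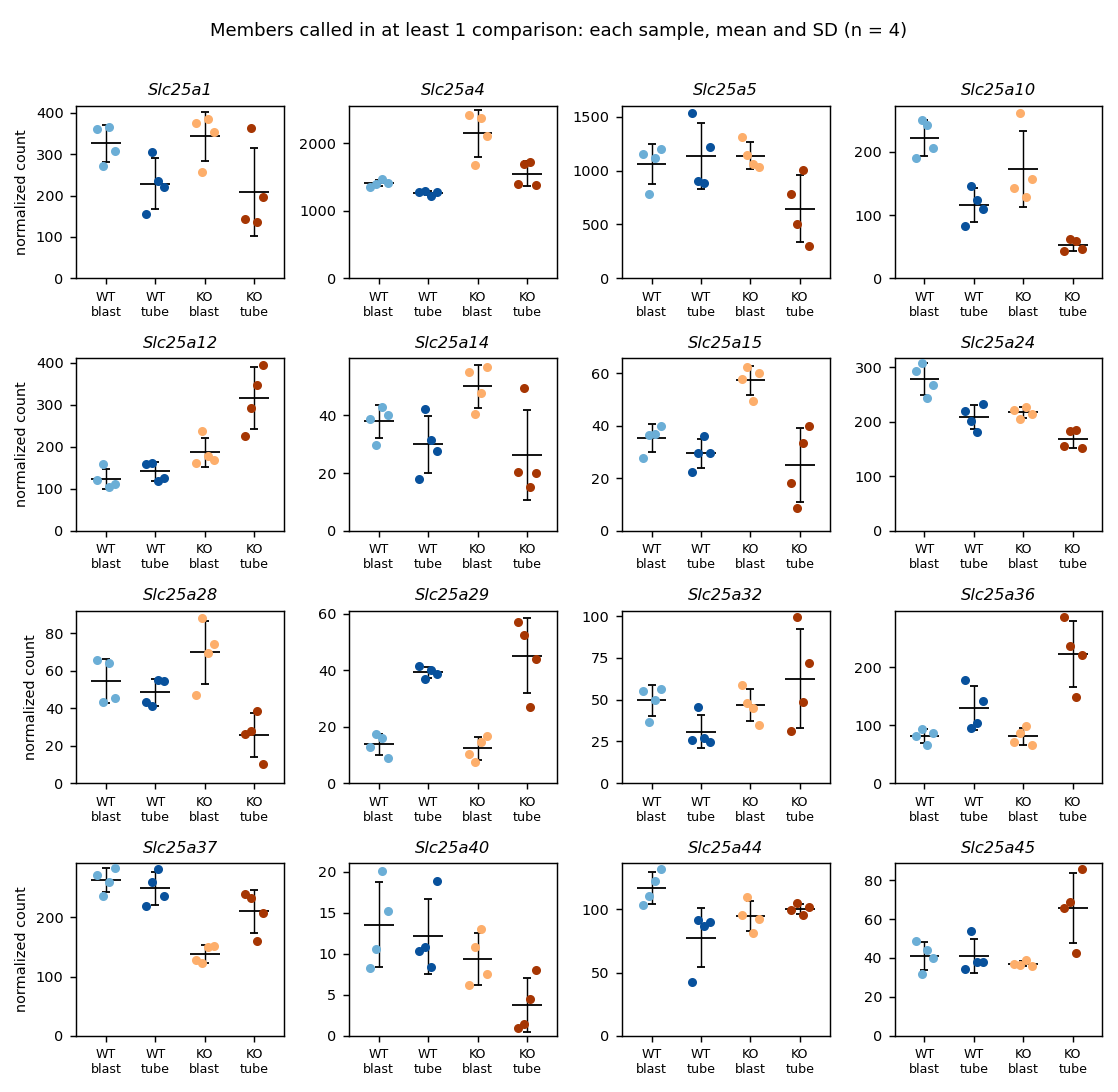
Normalized counts (vertical axes, each from 0) of the 16 Slc25 members called in at least 1 comparison, in each of the 16 samples. Points are samples in the order of replicates 1 to 4, lines are group means and bars the standard deviation (n = 4); blast and tube stand for myoblasts and myotubes, and the 4 Fam134bKO myotubes of Slc25a10 lie between 43.6 and 62.7, below every other sample.

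Of the 4 carriers of di- and tricarboxylates 3 were tested. Slc25a10 (chr11:120491840-120499187, plus strand) encodes the dicarboxylate carrier, which exchanges malate and succinate for phosphate. The 4 WT myoblast samples gave normalized counts of 190.1, 249.8, 242 and 206, and the 4 WT myotube samples gave 82.9, 147, 124 and 109. The Fam134bKO samples gave 143, 261, 129 and 157 in myoblasts and 43.6, 62.7, 59.4 and 45.96 in myotubes. In both genotypes every myotube sample was below every myoblast sample. The Fam134bKO myotubes were also below all WT myotubes. Slc25a10 fell on differentiation, with a log2 fold change of -0.96 ± 0.22 in WT (limma, adjusted p = 0.00388) and -1.65 ± 0.22 in Fam134bKO cells (adjusted p = 7.92e-06), and it was lower in Fam134bKO than in WT myotubes (-1.10 ± 0.22, adjusted p = 0.00115). These 3 calls held in each of the 16 fits that left out 1 sample and in the 12 other settings. Without both shallow libraries, the limma log2 fold changes were -1.69 in Fam134bKO differentiation (adjusted p = 6.75e-05) and -1.14 in the myotube comparison (adjusted p = 0.00449), both of them called. Slc25a10 overlaps the gene Gm11788 on the other strand, and whether reads were counted by strand is not given in the sources used here. The citrate carrier Slc25a1, which exports citrate for fatty acid synthesis, fell on differentiation of Fam134bKO cells (-0.81 ± 0.26, limma adjusted p = 0.0186), from 343 ± 58.8 to 209 ± 106 normalized counts (mean ± SD, n = 4). The WT change was -0.54 ± 0.26 (adjusted p = 0.133). The call in Fam134bKO differentiation was lost without Fam134bKO myoblasts replicates 1 or 3, or without Fam134bKO myotubes replicates 1 or 3, with log2 fold changes of -1.11 to -0.64 and adjusted p up to 0.0681 over the fits that left out 1 sample. With both shallow libraries left out, the limma log2 fold change was -1.28 in Fam134bKO differentiation (adjusted p = 0.000294), which was called. The oxoglutarate/malate carrier Slc25a11 was called in no comparison and stayed between -0.15 ± 0.15 and 0.16 ± 0.15.

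Among 9 amino acid carriers 6 were tested. Slc25a29 (chr12:108825873-108835883, minus strand) encodes the carrier of basic amino acids and had the largest rise among the tested members in both genotypes. In WT cells, the normalized counts were 12.9, 17.4, 16.01 and 8.91 in myoblasts and 41.4, 36.9, 39.96 and 38.6 in myotubes. For Fam134bKO cells the values were 10.5, 7.47, 14.7 and 16.7 in myoblasts and 57.1, 52.5, 26.99 and 43.96 in myotubes. Every myotube sample was above every myoblast sample, in WT and in Fam134bKO cells alike. Slc25a29 rose by 1.48 ± 0.31 in WT (limma, adjusted p = 0.00156) and by 1.79 ± 0.31 in Fam134bKO cells (adjusted p = 0.000135). Both calls held in the 16 fits that left out 1 sample, and a filter at a normalized count of 50 removed the gene. The limma log2 fold change was 1.65 in Fam134bKO differentiation (adjusted p = 0.00181) in the fit without both shallow libraries, which was called. Between genotypes Slc25a29 differed by -0.17 ± 0.31 in myoblasts and 0.15 ± 0.31 in myotubes, neither called.

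Slc25a12 (chr2:71271063-71367749, minus strand) encodes Aralar, which exports aspartate for glutamate in the malate-aspartate shuttle. Its normalized counts were 120.0, 158, 105 and 111 in the 4 WT myoblast samples and 159.7, 162, 118 and 126 in the 4 WT myotube samples. In Fam134bKO cells they were 162, 237, 179 and 169 in myoblasts and 225, 293, 348 and 396 in myotubes. Fam134bKO samples were above the WT samples of the same stage throughout, and 3 of the 4 Fam134bKO myotubes lay above all Fam134bKO myoblasts. Slc25a12 was higher in Fam134bKO than in WT cells by 0.59 ± 0.20 in myoblasts (limma, adjusted p = 0.0449) and by 1.14 ± 0.20 in myotubes (adjusted p = 0.000276). It rose on differentiation of Fam134bKO cells (0.74 ± 0.20, adjusted p = 0.00626), and its WT change was 0.20 ± 0.20 (adjusted p = 0.509). The call in the myoblast comparison was lost without WT myoblasts replicates 1, 3 or 4, or without WT myotubes replicate 4, or without Fam134bKO myoblasts replicates 1, 2, 3 or 4, with log2 fold changes of 0.47 to 0.71 and adjusted p up to 0.138 over the fits that left out 1 sample. Without both shallow libraries, the limma log2 fold changes were 0.60 in Fam134bKO differentiation (adjusted p = 0.0530) and 0.99 in the myotube comparison (adjusted p = 0.00444), of which the second was called.

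Slc25a15 encodes the ornithine/citrulline carrier of the urea cycle. The 4 WT myoblast samples gave normalized counts of 27.7, 36.6, 37.03 and 40.1, and the 4 WT myotube samples gave 22.4, 29.7, 36.2 and 29.7. The Fam134bKO samples gave 57.7, 62.3, 49.4 and 60.1 in myoblasts and 18.4, 8.76, 33.3 and 39.96 in myotubes. The Fam134bKO myoblasts were the highest group, above all other samples. Slc25a15 fell on differentiation of Fam134bKO cells (-1.36 ± 0.34, limma adjusted p = 0.00382). Its difference of 0.69 ± 0.34 between genotypes in myoblasts, where the groups did not overlap, was not called (adjusted p = 0.190). The call held in the 16 fits that left out 1 sample, and a filter at 50 removed the gene. With both shallow libraries left out, the limma log2 fold change was -1.17 in Fam134bKO differentiation (adjusted p = 0.00340), which was called.

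Slc25a44, a carrier of branched-chain amino acids, was called in WT differentiation, where it fell. In WT cells, the normalized counts were 103, 111, 122 and 132 in myoblasts and 42.3, 91.8, 86.4 and 90.2 in myotubes. For Fam134bKO cells the values were 95.4, 109.6, 81.5 and 92.6 in myoblasts and 99.7, 105, 95.4 and 102 in myotubes. All WT myotubes were below all WT myoblasts, with replicate 1 of the WT myotubes far below the other 3. The WT change was -0.64 ± 0.21 (limma, adjusted p = 0.0351) and the Fam134bKO change 0.09 ± 0.21 (adjusted p = 0.778). The difference between these changes was 0.74 ± 0.30 and was not called (adjusted p = 0.208). The call in WT differentiation was lost without WT myoblasts replicates 2, 3 or 4, or without WT myotubes replicate 1, with log2 fold changes of -0.75 to -0.38 and adjusted p up to 0.152 over the fits that left out 1 sample. The glutamate carrier Slc25a22 and the glycine carrier Slc25a38, needed for haem synthesis, were called in no comparison.

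All 12 carriers of cofactors, acylcarnitines and metals were tested, and none of them was called in WT differentiation, against 23.0% of all genes. Whether so small a group departs from that share was not tested. The mitoferrins, which carry iron for haem and iron-sulphur clusters, moved in opposite directions in Fam134bKO cells. Slc25a37 (chr14:69241848-69285112, minus strand) encodes mitoferrin-1. Its normalized counts were 271, 236, 260.2 and 283 in the 4 WT myoblast samples and 219, 259, 282 and 236 in the 4 WT myotube samples. In Fam134bKO cells they were 128, 124, 149 and 152 in myoblasts and 240.1, 232, 160.1 and 208 in myotubes. The Fam134bKO myoblasts were below every other sample. Slc25a37 was lower in Fam134bKO than in WT myoblasts (-0.93 ± 0.16, limma adjusted p = 0.000209) and rose on differentiation of Fam134bKO cells (0.59 ± 0.16, adjusted p = 0.00692). In myotubes the genotypes differed by -0.26 ± 0.16 (adjusted p = 0.265). Both calls held in every one of the 16 fits that left out 1 sample and in the 12 other settings. The limma log2 fold change was 0.51 in Fam134bKO differentiation (adjusted p = 0.0492) in the fit without both shallow libraries, which was called. In the last 500 bases of Slc25a37, 24.9% of the 31-base words also occur in Gm16867, and the gene overlaps others on the opposite strand, so its reads may be shared.

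Slc25a28 (chr19:43663801-43674881, minus strand) encodes mitoferrin-2. The 4 WT myoblast samples gave normalized counts of 65.5, 43.4, 64.05 and 45.5, and the 4 WT myotube samples gave 43.2, 41.4, 54.8 and 54.5. The Fam134bKO samples gave 47.2, 87.99, 69.4 and 74.2 in myoblasts and 26.1, 27.7, 38.7 and 9.99 in myotubes. All Fam134bKO myotubes were below all samples of the other 3 groups. Slc25a28 fell on differentiation of Fam134bKO cells (-1.52 ± 0.31, limma adjusted p = 0.000874) and was lower in Fam134bKO than in WT myotubes (-1.02 ± 0.31, adjusted p = 0.0221). The call in the myotube comparison was lost without WT myotubes replicates 3 or 4, or without Fam134bKO myotubes replicate 4, with log2 fold changes of -1.26 to -0.64 and adjusted p up to 0.0743 over the fits that left out 1 sample. Without both shallow libraries, the limma log2 fold changes were -1.07 in Fam134bKO differentiation (adjusted p = 0.00613) and -0.58 in the myotube comparison (adjusted p = 0.150), of which the first was called.

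Slc25a32 encodes a carrier of folate and FAD. In WT cells, the normalized counts were 55.4, 36.6, 50.04 and 56.1 in myoblasts and 25.9, 45.9, 26.95 and 24.8 in myotubes. For Fam134bKO cells the values were 58.6, 48.1, 45.1 and 35.04 in myoblasts and 30.98, 99.2, 48.6 and 71.9 in myotubes. The myotube groups overlapped, with the Fam134bKO myotubes spread most widely. Slc25a32 was higher in Fam134bKO than in WT myotubes (0.92 ± 0.31, limma adjusted p = 0.0340). The call in the myotube comparison was lost without WT myotubes replicates 1, 3 or 4, or without Fam134bKO myotubes replicates 2 or 4, with log2 fold changes of 0.66 to 1.21 and adjusted p up to 0.109 over the fits that left out 1 sample. With both shallow libraries left out, the limma log2 fold change was 0.37 in the myotube comparison (adjusted p = 0.421), which was not called.

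Slc25a40, the paralogue of the glutathione carrier Slc25a39, was near the floor of the libraries. Its normalized counts were 8.30, 10.6, 20.01 and 15.2 in the 4 WT myoblast samples and 10.4, 10.8, 8.36 and 18.8 in the 4 WT myotube samples. In Fam134bKO cells they were 6.12, 10.8, 13.01 and 7.51 in myoblasts and 0.968, 1.46, 4.50 and 7.99 in myotubes. The Fam134bKO myotube values stood on 1 to 5 reads each. Slc25a40 fell on differentiation of Fam134bKO cells (-1.35 ± 0.47, limma adjusted p = 0.0330) and was lower in Fam134bKO than in WT myotubes (-1.68 ± 0.47, adjusted p = 0.0140). The call in Fam134bKO differentiation was lost without Fam134bKO myoblasts replicates 2, 3 or 4, or without Fam134bKO myotubes replicates 1 or 2, with log2 fold changes of -1.74 to -1.01 and adjusted p up to 0.111 over the fits that left out 1 sample. The call in the myotube comparison was lost without WT myotubes replicate 4, with log2 fold changes of -2.07 to -1.34 and adjusted p up to 0.0567 over the fits that left out 1 sample. The limma log2 fold changes were -1.60 in Fam134bKO differentiation (adjusted p = 0.0150) and -1.93 in the myotube comparison (adjusted p = 0.00709) in the fit without both shallow libraries, both of them called. The first call was also lost or left untested in 6 and the second in 3 of the 12 other settings. Of the 31-base words in its last 500 bases, 13.6% also occur in Gm5066, so its reads may be shared. The remaining 8 members of the group, among them the carnitine/acylcarnitine carrier Slc25a20, the NAD carrier Slc25a51 and the glutathione carrier Slc25a39, were called in no comparison. Slc25a20, which brings acylcarnitines to beta-oxidation, changed by 0.31 ± 0.22 in WT and 0.28 ± 0.22 in Fam134bKO differentiation.

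Of the 12 uncoupling-like and orphan members 6 were tested, and 2 were called, both in Fam134bKO differentiation, where 33.4% of all genes were called. Slc25a14 encodes the uncoupling-like protein Ucp5. The 4 WT myoblast samples gave normalized counts of 38.8, 29.9, 43.03 and 40.1, and the 4 WT myotube samples gave 18.1, 42.3, 31.6 and 27.7. The Fam134bKO samples gave 55.1, 40.7, 47.7 and 56.7 in myoblasts and 20.3, 49.6, 15.3 and 19.98 in myotubes. Of the Fam134bKO myotubes, 3 were below all Fam134bKO myoblasts and replicate 2 lay within their range. Slc25a14 fell (-1.04 ± 0.32, limma adjusted p = 0.0157). The call in Fam134bKO differentiation was lost without Fam134bKO myotubes replicate 3, with log2 fold changes of -1.38 to -0.84 and adjusted p up to 0.0547 over the fits that left out 1 sample. Without both shallow libraries, the limma log2 fold change was -1.44 in Fam134bKO differentiation (adjusted p = 0.00121), which was called. Slc25a45 is an orphan carrier. In WT cells, the normalized counts were 48.9, 31.8, 44.03 and 40.1 in myoblasts and 34.5, 53.97, 38.1 and 37.6 in myotubes. For Fam134bKO cells the values were 36.7, 36.5, 39.04 and 35.9 in myoblasts and 65.8, 68.6, 42.3 and 85.9 in myotubes. All Fam134bKO myotubes were above all Fam134bKO myoblasts. Slc25a45 rose by 0.77 ± 0.24 (limma, adjusted p = 0.0176). The call in Fam134bKO differentiation was lost without Fam134bKO myotubes replicate 4, with log2 fold changes of 0.62 to 0.96 and adjusted p up to 0.0539 over the fits that left out 1 sample. With both shallow libraries left out, the limma log2 fold change was 0.50 in Fam134bKO differentiation (adjusted p = 0.161), which was not called. Slc25a27, Slc25a30, Slc25a46 and Slc25a53 were called in no comparison.

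Whether a carrier's change on differentiation differed between the genotypes was tested as an interaction. No member was called (limma, adjusted p over all genes tested), against 3.45% of all genes (1.97% higher and 1.48% lower), and limma voom on the recovered reads gave 0 as well. At an unadjusted p under 0.05 there were 9 of 35 members, beside 17.4% of all genes. The estimates ran from -1.36 ± 0.44 for Slc25a28 (adjusted p = 0.103) to 1.01 ± 0.43 for Slc25a32 (adjusted p = 0.229). Without Fam134bKO myotubes replicate 3 the count was 3, against 3.91% of all genes, namely Slc25a5 (-1.28), Slc25a28 (-1.60) and Slc25a37 (0.80). The calls made in 1 genotype and not in the other therefore are not shown to differ between them.

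The balance of close paralogues was followed in every sample as the difference of their log2 values. It is compared between samples only and is not read as a comparison of the levels of the paralogues. Slc25a4 over Slc25a5 ranged over 0.23 to 0.83 among WT myoblasts and -0.26 to 0.52 among WT myotubes, and over 0.55 to 1.17 among Fam134bKO myoblasts and 0.78 to 2.20 among Fam134bKO myotubes. The Fam134bKO myotubes were all above the WT myotubes, and the other 3 comparisons overlapped. The shallow replicates 2 and 4 of the Fam134bKO myotubes gave 1.75 and 2.20, and replicates 1 and 3 gave 0.84 and 0.78. Slc25a37 over Slc25a28 ranged over 2.01 to 2.61 among WT myoblasts and 2.09 to 2.62 among WT myotubes, and over 0.49 to 1.42 among Fam134bKO myoblasts and 2.02 to 4.25 among Fam134bKO myotubes. The mitoferrin balance was thus lower in all Fam134bKO myoblasts than in all WT myoblasts, and higher in all Fam134bKO myotubes than in all Fam134bKO myoblasts. Slc25a39 over Slc25a40 was 5.76 to 7.03 in WT myotubes and 7.37 to 8.88 in Fam134bKO myotubes, without overlap, with Slc25a40 near the floor. The other comparisons of this pair overlapped. All other pairs computed, among them Slc25a24 over Slc25a25, Slc25a23 over Slc25a24 and Slc25a33 over Slc25a36, overlapped in every comparison. Among all single genes tested, the groups did not overlap for 19.4 to 28.0%, depending on the comparison. No test was made of these balances.

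**Figure D4:**
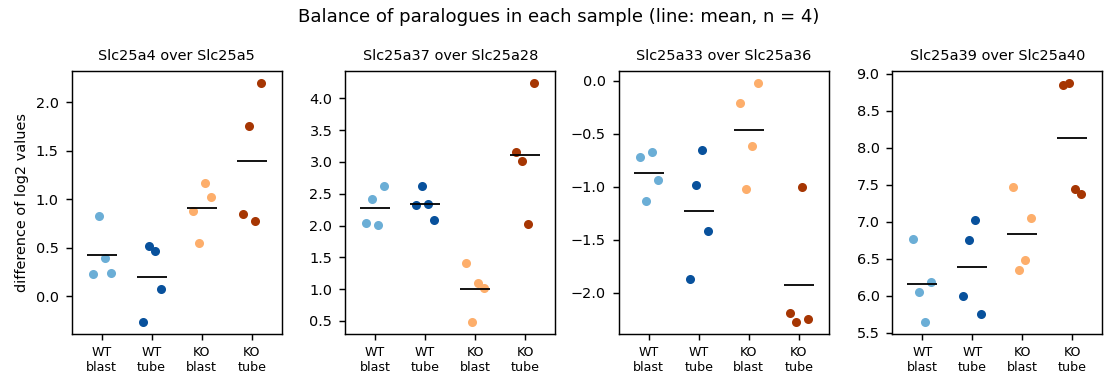
Difference of the log2 values of 4 pairs of paralogues (vertical axes, which do not start at 0) in each of the 16 samples, with the group mean as a line (n = 4). Slc25a4 over Slc25a5 lies between 0.78 and 2.20 in Fam134bKO myotubes and between -0.26 and 0.52 in WT myotubes, and Slc25a37 over Slc25a28 between 0.49 and 1.42 in Fam134bKO myoblasts, below all other samples.

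The 12 members that were not tested fell into those without reads and those with few. Slc25a18, Slc25a31, Slc25a41, Slc25a48 and Slc25a54 had 0 reads in all 16 samples. Among them, Slc25a31 is the ADP/ATP carrier of testis and Slc25a18 a glutamate carrier. Slc25a13, the aspartate/glutamate carrier of liver and paralogue of Slc25a12, had reads only in WT myoblasts replicates 2 and 4, with normalized counts of 2.89 and 1.78. Slc25a21, the oxodicarboxylate carrier, had 1 read in all, and the ornithine carrier Slc25a2 had reads in 3 samples. The orphan carriers Slc25a34, Slc25a35 and Slc25a43 and the liver carrier Slc25a47 were also below the filter. Of these, Slc25a35 (1 to 27 reads) and Slc25a47 (2 to 11 reads) had reads in all 16 samples. A count of 0 allows up to 3 reads per library, so low expression of a gene at 0 was not detectable at this depth.

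The genes that work beside the carriers were taken from lists chosen with earlier results of these data known. Their calls come from the main fit alone. They were not checked in the fits without single samples or both shallow libraries, nor in the other settings. Of all genes tested, 13.8% were called higher and 9.16% lower in WT differentiation, and 17.3% and 16.1% in Fam134bKO differentiation. Between genotypes it was 7.26% and 8.5% in myoblasts and 9.74% and 13.7% in myotubes. Of the carriers of the same family that are named otherwise, 3 were tested and Ucp1 was at 0. Ucp2, the uncoupling protein 2, rose on differentiation of WT cells (1.02 ± 0.23, limma adjusted p = 0.00352) and was lower in Fam134bKO than in WT cells, with log2 fold changes of -1.42 ± 0.23 in myoblasts (adjusted p = 0.000131) and -2.07 ± 0.23 in myotubes (adjusted p = 2.47e-06). Mtch2 fell on differentiation of Fam134bKO cells (-0.40 ± 0.15, adjusted p = 0.0452). Among 10 other inner membrane carriers and outer membrane porins, 1 rose and 1 fell in WT differentiation, 2 fell in Fam134bKO differentiation, 1 was higher in Fam134bKO myoblasts and 2 were lower in Fam134bKO myotubes. Mpc1, a subunit of the pyruvate carrier, rose in WT differentiation (0.93 ± 0.26, adjusted p = 0.0134) and was lower in Fam134bKO than in WT myotubes (-0.74 ± 0.26, adjusted p = 0.0430), and the serine carrier Sfxn1 fell in both genotypes (-0.82 ± 0.19 in WT and -0.59 ± 0.19 in Fam134bKO cells). Its relative Sfxn2 fell in Fam134bKO differentiation (-0.82 ± 0.32, adjusted p = 0.0487), and Mpc2, the other pyruvate carrier subunit, was higher in Fam134bKO than in WT myoblasts (0.51 ± 0.17, adjusted p = 0.0495). The Sfxn2 groups overlapped, with normalized counts of 42.5 to 72.2 in Fam134bKO myoblasts and 19.0 to 69.7 in Fam134bKO myotubes. For Mpc1 the myotube groups overlapped too, at 282 to 414 in WT and 130 to 337 in Fam134bKO cells. Of 9 genes of the carrier import pathway none was called in WT differentiation, 1 rose and 2 fell in Fam134bKO differentiation, 2 were lower in Fam134bKO myoblasts and 1 was lower in Fam134bKO myotubes. The small Tim proteins escort carriers across the intermembrane space. Of these, Timm8a1 fell in Fam134bKO differentiation (-0.98 ± 0.28, adjusted p = 0.00956), and so did Timm13 (-0.75 ± 0.20, adjusted p = 0.00731), which was also lower in Fam134bKO than in WT myotubes (-0.82 ± 0.20, adjusted p = 0.00619). Timm9 was lower in Fam134bKO than in WT myoblasts (-0.61 ± 0.19, adjusted p = 0.0278) and rose in Fam134bKO differentiation (0.58 ± 0.19, adjusted p = 0.0201). The import receptor Tomm70a was lower in Fam134bKO than in WT myoblasts (-0.61 ± 0.17, adjusted p = 0.0182).

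The enzymes on either side of the carriers changed in part. Their lists too were chosen with earlier results of these data known, and their calls come from the main fit alone. The counts stand beside the shares of all genes given above, and no list was tested as a set. Among the 5 mitochondrial one-carbon enzymes, which use the folate that Slc25a32 imports, 1 rose in WT differentiation, 4 fell in Fam134bKO differentiation, 4 were higher in Fam134bKO myoblasts and 1 was higher in Fam134bKO myotubes. Aldh1l2, the mitochondrial formyltetrahydrofolate dehydrogenase, was higher in Fam134bKO than in WT myoblasts (2.19 ± 0.20, adjusted p = 5.74e-08). It rose in WT (1.19 ± 0.20, limma adjusted p = 0.000254) and fell in Fam134bKO differentiation (-0.94 ± 0.20, adjusted p = 0.00125), and its interaction was called (-2.13 ± 0.29, adjusted p = 7.80e-05). The serine hydroxymethyltransferase Shmt2 was called in the interaction too (-1.01 ± 0.26, adjusted p = 0.0330). The formate-producing Mthfd1l (1.06 ± 0.24, adjusted p = 0.00308) and the methylenetetrahydrofolate dehydrogenase Mthfd2 (0.79 ± 0.17, adjusted p = 0.00187) were higher in Fam134bKO than in WT myoblasts. Of 5 citrate-producing and citrate-using enzymes 2 fell in WT and 2 in Fam134bKO differentiation, and 1 was lower in Fam134bKO than in WT myotubes. The ATP citrate lyase Acly, which uses the citrate that Slc25a1 exports, fell in both genotypes (-0.74 ± 0.17 in WT and -0.94 ± 0.17 in Fam134bKO cells). The fatty acid synthase Fasn was called lower in WT differentiation (-0.89 ± 0.22, limma adjusted p = 0.00711). The acetyl-CoA carboxylase Acaca was called lower in Fam134bKO differentiation (-0.51 ± 0.19, adjusted p = 0.0389). In the other genotype the mean normalized count went down as well, without a call. It went from 215 to 160 for Acaca in WT cells and from 859 to 727 for Fasn in Fam134bKO cells. Of the 4 malate-aspartate shuttle enzymes 1 was called, Got1, which rose in Fam134bKO differentiation (0.67 ± 0.21, adjusted p = 0.0196). Of 4 carnitine shuttle enzymes tested 1 was called, Cpt1a, which was higher in Fam134bKO than in WT myoblasts (0.81 ± 0.20, adjusted p = 0.00621), and the muscle form Cpt1b was at 0. Neither of the 2 mitochondrial creatine kinases passed the filter. In the interaction no gene of the citrate, malate-aspartate, carnitine, import or other carrier lists was called, against 3.45% of all genes. For these lists a call in 1 genotype is therefore not shown to differ from the other.

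The 3 genes outside the family whose log2 values over the 16 samples were most like those of Slc25a4 were Vamp7 (Pearson's r = 0.911), Cacna1a (0.908) and Bcat1 (0.902). The 16 samples fall into the 4 groups and share their libraries, so these values describe a likeness of pattern and carry no p.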

How the data were processed

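Total RNA of 16 C2C12 samples was sequenced as single-end digital mRNA libraries by a commercial service. According to the methods and the submitters' processing notes, reads were converted with bcl2fastq, trimmed and cleared of ribosomal RNA and phiX with bbduk, aligned with STAR 2.6.0a (genome build mm10) and counted on genes with HTSeq. The tool used for normalization and the strand setting of the counting are not given in the sources used here. The authors deposited log2 values of normalized counts with 1 added. The values show it themselves: undoing the log2 and taking off 1 gives, in each sample, whole multiples of a single step (tolerance 0.001 of a read). Reads recovered in this way gave the depth (1484750 to 3287461 reads), the floor of 3 reads and the limma voom alternative. Intervals and floors cover counting error only. No columns of unmapped samples were present, and 74 rows carried no gene symbol.

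Groups were taken from the sample titles, since a separate label lists the genotype as unknown. The 10767 of 31053 genes that reached a normalized count of 10 in 4 or more samples were fitted with limma 3.58.1 in R 4.3.3 (4 group means over all 16 samples, moderated with a trend), adjusted by Benjamini-Hochberg over all genes tested and called under 0.05. Planning had allowed for linear values, and since the file holds log2 values no further log was taken. The fit was tested on simulated data. Slc25a4 and Slc25a5 also had two-sided exact permutation tests. The members, their role groups and all gene lists (carriers named otherwise, other inner membrane carriers and porins, carrier import, one-carbon, citrate, malate-aspartate, carnitine and creatine kinase genes, and cell type markers) were chosen with earlier results of these data known. Values in every sample are given for Slc25a4 and Slc25a5 and for the 5 called members with the largest rise and the 5 with the largest fall in each comparison, at most 4 genes are named per list by the largest called changes, and the 3 genes most like Slc25a4 were ranked by Pearson's r. Markers were named to describe the samples. Members called in no comparison are given by counts and a few values, and 1 of them and 1 gene of the lists are not reported by name here. Gene positions and shared 31-base words are from GENCODE M21 on GRCm38, the assembly of mm10, and promoters from RefSeq (GRCm38.p6). Alternatives were pseudocounts of 0.5 and 5, no filter, a minimum of 50, total, median-ratio and quantile scaling, a replicate block, only the 8 samples compared, sample weights, limma voom, and each sample left out in turn. A fit without both shallow libraries was added after seeing the data.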

Additional observations from a re-analysis of the deposited data

Results flagged for a closer look

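In each of the 140 groups of 4 samples of the tested members, the gap of the highest or lowest sample to its neighbour was divided by the range of the group and compared with Dixon's 95% critical value for 4 samples. Chance passes this value in about 1 in 20 groups, and 7 of the 140 passed it. Slc25a4 in WT myotubes replicate 3 was the lowest at 1225, against 1284 to 1289 normalized counts in the other 3 (gap over range 0.922). Slc25a44 in WT myotubes replicate 1 was the lowest at 42.3 against 86.4 to 91.8 (0.922), and Slc25a46 in the same sample was the lowest at 226 against 283 to 292 (0.880). Slc25a26 in that sample was the highest at 25.0 against 12.1 to 12.9 (0.914). Slc25a32 in WT myotubes replicate 2 was the highest at 45.9 against 24.8 to 27.0 (0.864). In Fam134bKO myoblasts replicate 2, Slc25a27 was the lowest at 2.49 against 10.5 to 11.3 (0.948) and Slc25a33 the lowest at 42.3 against 61.2 to 65.1 (0.859). Of these, the fall of Slc25a44 in WT differentiation and the difference of Slc25a32 between the genotypes in myotubes are called results whose groups hold such a sample.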

How the results depend on the processing

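Of the 27 calls of a member in a comparison, 0 changed direction in any setting, 14 held in each fit that left out 1 sample, 11 held in each of the 12 other settings and 9 held in all of them. A gene that a filter removed could not be called there, and why the other calls were lost was not tested. The share of all genes called is given beside each count. The number of members called in WT differentiation was 4 (23.0% of all genes) and ran from 2 to 6 with 1 sample left out (14.5 to 27.4%), and it was 9 with sample weights (43.5%) and 7 without both shallow libraries (30.5%). In Fam134bKO differentiation it was 13 (33.4%) and ran from 10 to 14 (26.3 to 34.6%). Between genotypes in myoblasts it was 3 (15.8%) and ran from 2 to 4 (12.4 to 18%), and it was 7 with only the 8 samples compared (24.7%), 11 with sample weights (35%) and 6 without both shallow libraries (20.7%). Between genotypes in myotubes it was 7 (23.4%) and ran from 3 to 9 (16.9 to 24.7%), and it was 2 with only the 8 samples compared (14.5%) and 4 without both shallow libraries (20.5%). The interaction count was 0 (3.45%) and ran from 0 to 3 with 1 sample left out (2.15 to 4.84%), and it was 1 with sample weights (11.3%; Slc25a51, 0.77). No setting moved the median change of all genes past 0.1. Same-numbered samples of different groups did not deviate together (mean r = 0.033 over 24 pairs, -0.22 to 0.37, beside -0.011 over 72 other pairs), so the numbers were not taken to pair the samples. With the replicate block the counts were 3, 13, 3, 7 and 0 in the same order, and the 1 call lost was that of Slc25a24. The members under the filter were too low to test, and the Fam134bKO myotube values of Slc25a40 stand on few reads. Whether this lay in the depth or in the expression of these genes was not tested.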
